A study of Mus musculus with 12 samples.

Results

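Knockdown of Pea3 by siRNA (siPea3, 4 arrays) was set directly against knockdown of Erm (siErm, 3 arrays) in MMT cells, which are an established mouse mammary tumour line. The arrays were chosen by their titles and make up 7 of the 12 arrays of the series. The other 5 arrays, 3 from cells given a control siRNA (siCtrl) and 2 from untransfected cells, entered no test here, and their levels are given only beside those of the knockdowns. Both compared groups therefore share the cell line, a culture medium with fetal calf serum and an siRNA transfection. They differ in the gene targeted and so in the siRNA. Effects of the siRNA itself and of losing its target cannot be told apart in this design. Per the labels the arrays of a group are biological replicates, and all come from 1 cell line. The sources used here do not give the siRNA dose, the siRNA sequences or the time after transfection. Total RNA was amplified, labelled with digoxigenin and read by chemiluminescence on Applied Biosystems mouse arrays of 33012 probes, and all levels below are the deposited signals of single probes.

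Pea3 and Erm are older names of Etv4 and Etv5. Together with Etv1 (Er81) they make up the PEA3 subfamily of ETS proteins, transcription factors that bind DNA at sites built around a GGAA core and share nearly the same DNA-binding domain. Their activity is raised by growth factor signalling through the MAP kinases, and in mouse mammary tumours they have been linked to invasion and to genes of matrix breakdown. The direct comparison asks which genes differ between knockdown of 1 of these relatives and of the other, as the series title speaks of target genes of both factors.

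A probe was detected on an array where its signal was at least 3 times its noise. Detected probes numbered 11286 (34.2%, array 2) to 13814 (41.8%) on siPea3 arrays and 12625 to 13707 on siErm arrays. Signals on siPea3 array 2 had an upper quartile of 7.47, those on siPea3 arrays 1, 3 and 4 of 10.2 to 10.9, and those on siErm arrays of 10.3 to 13.6. Log2 signals of siPea3 array 2 correlated with those of the other 6 arrays at 0.932 to 0.948, and all other pairs at 0.952 to 0.981, across probes, which are not independent. Of the luminal mammary markers with a probe, 10 of 16 were detected on at least 1 of the 7 arrays, among them Krt8 and Krt18, while Epcam, Cdh1, Esr1, Csn2, Lalba and Muc1 were detected on none. The milk gene Csn3 was detected on 3 of 4 siPea3 arrays and 3 of 3 siErm arrays at low signals (means of 3.23 and 5.62). Of the leukocyte markers with a probe, 4 of 9 were detected on at least 1 of the 7 arrays. Cd14 and Lyz2 were detected on all 7 (means of 43.25 and 6.275 in siPea3 cells, against 37.75 and 4.73 in siErm cells). Ptprc, Adgre1, Cd3e, Cd4 and Ms4a1 were detected on none. The fibroblast genes Col3a1, Lum, Thy1 and Fap were also detected on none, although the fibroblast genes Dcn and S100a4 were bright (means of 1728 and 1885 in siPea3 cells, against 1786 and 1409 in siErm cells).

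Of 13017 probes tested, 2 passed a limma fit at an adjusted p under 0.05 (0.0154% of probes), both higher in siPea3 cells. The annotation gives neither a gene symbol, so they are named by number, after their values were seen. Probe 712621 read 214.06, 191.83, 252.36 and 201.47 on siPea3 arrays, against 43.31, 24.84 and 36.13 on siErm arrays. Probe 888990 read 111.86, 153.65, 153.29 and 177.95 on siPea3 arrays, against 30.18, 19.75 and 25.18 on siErm arrays. Every siPea3 array lay far above every siErm array for both. The log2 differences were 2.66 ± 0.25 and 2.58 ± 0.25 (SE), 6.31-fold and 5.97-fold, each with an adjusted p of 0.0388 (0.00181 to 0.341 over 18 alternative settings). On siCtrl arrays the signals were 49.16, 15.94 and 29.91 for probe 712621, and 24.72, 30.27 and 26.38 for probe 888990. Untransfected cells read 1.52 and 1.01 for probe 712621 and 3.04 and 4.71 for probe 888990, so siErm and siCtrl cells stood at similar levels and untransfected cells below them.

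No probe with a gene symbol passed that threshold in limma. Without siPea3 array 2 no probe passed (1654 at an unadjusted p under 0.05), and when limma weighted the arrays by their quality 421 passed, 259 of them with a symbol. Before adjustment 1702 probes had a p under 0.05 (13.1%), 317 of them higher (2.44%) and 1385 lower (10.6%). The median log2 difference of all tested probes was -0.24, so the tested probes as a whole read lower in siPea3 cells. It stayed at -0.242 with the medians of all probes on the array set equal, and with no filter on dim probes the median was -0.101. Setting the medians of the probes detected on all 7 arrays equal moved the median of the tested probes to 0.028 and the unadjusted split to 1101 higher and 689 lower. Quantile normalization gave -0.038, with 975 higher and 831 lower. List medians below are therefore given relative to the median of all probes. As a second description, probes are counted whose siPea3 and siErm arrays did not overlap, and 342 of all tested probes were higher in this way (2.63%) and 1732 lower (13.3%). With the medians of detected probes set equal these shares became 9.79% higher and 6.91% lower, so a count of lower genes rests in part on the scaling.

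Etv4, on chromosome 11, is the gene targeted by the Pea3 siRNA. Its signal was 21.09, 20.55, 18.1 and 16.43 on siPea3 arrays, against 26.67, 45.71 and 32.35 on siErm arrays. All siPea3 arrays were below all siErm arrays, and the siErm arrays were near the mean of siCtrl cells (36.9 ± 5.89, SD, n = 3) and of untransfected cells (41.3, n = 2). The log2 difference was -0.85 ± 0.24 (SE), 1.8-fold lower, with an exact permutation p of 0.0286, 2-sided, the smallest that the 35 splits of 7 arrays allow. In limma over all probes Etv4 did not pass (adjusted p = 0.272, 0.0847 to 0.751 over 18 alternatives), and with the detected probes scaled the arrays of the 2 groups overlapped.

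Etv5, on chromosome 16, is the target of the Erm siRNA, and its probe was detected on none of the 7 arrays. It read 0.59, 0.8, 0.66 and 0.8 on siPea3 arrays, against 1.77, 0.54 and 0.51 on siErm arrays. The groups overlapped (exact permutation p = 0.914), and the probe was too dim to enter the fit, so it gives no check of the Erm knockdown. On siCtrl arrays it read 2.77, 1.16 and 0.99, and in untransfected cells 23.69 and 1.05. Etv1, on chromosome 12, is the relative that neither siRNA targets. It read 12.63, 1.32, 5.23 and 1.74 on siPea3 arrays, where 2 of 4 arrays detected it, against 7.74, 10.4 and 3.74 on siErm arrays, where all 3 did. The groups overlapped here too (log2 -0.93 ± 0.78, limma adjusted p = 0.576, exact permutation p = 0.371). Of 11 other ETS factors tested none passed, none had groups apart and none reached an unadjusted p under 0.05 in limma. Elf3, an epithelial ETS factor, had the smallest p of them, at 12.3 ± 5.21 in siPea3 cells and 7.68 ± 1.05 in siErm cells (SD, n = 4 and 3).

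**Figure D1:**
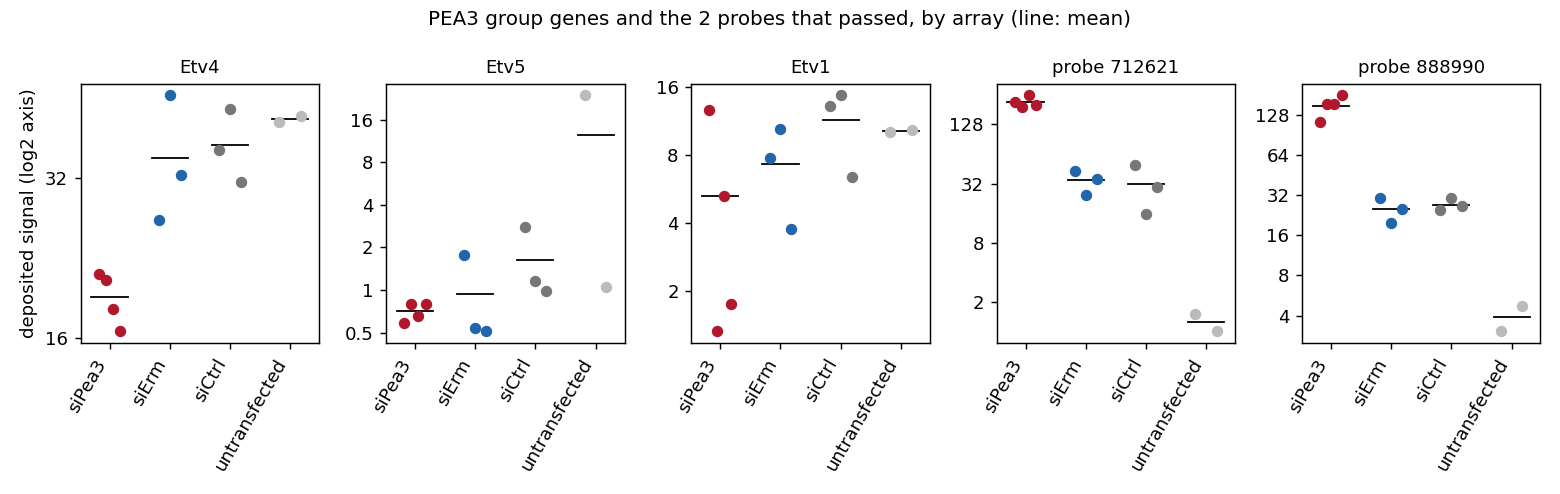
Deposited signal (log2 axis) of Etv4, Etv5, Etv1 and the 2 probes that passed the test, with 1 point per array and a line at each group mean, for siPea3 (4 arrays), siErm (3), siCtrl (3) and untransfected cells (2). The siPea3 points of Etv4 (16.43 to 21.09) lie below all siErm points (26.67 to 45.71), and those of both numbered probes lie above all others.

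Genes were then named by size and consistency among 182 higher and 1113 lower probes with 1 symbol, groups that did not overlap and detection on every array of the brighter group. The 12 with the smallest p and the 10 with the largest difference in each direction gave 17 higher and 19 lower genes. None of the 36 passed over all probes (limma adjusted p = 0.0794 to 0.337). All kept their direction in the 625 values that the 18 alternatives gave for them. Most of these signs were fixed in advance, because groups without overlap keep their sign when an array is left out or only the filter changes. The lowest adjusted p, 0.0794, belonged to Prss2, a trypsinogen. It read 2.4, 4.91, 5.75 and 5.23 on siPea3 arrays, against 0.56, 0.7 and 0.79 on siErm arrays, none of which detected it.

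Among the genes higher in siPea3 cells the widest gap was that of Cd70, the TNF family ligand of the lymphocyte receptor CD27. Cd70 read 4.05, 15.43, 19.7 and 13.57 on siPea3 arrays, against 1.11, 1.38 and 0.46 on siErm arrays, where it was not well above background. It was at least 12.8-fold higher, with the siErm signals taken at no less than the lowest detected signal of each array, and siPea3 array 1 stood well below the other 3. The fitted log2 difference was 3.68 ± 0.6 (SE), which gives the same fold. Rgcc, a regulator of the cell cycle, read 46.41, 102.93, 95.48 and 57.8 on siPea3 arrays, against 16.38, 9.24 and 12.73 on siErm arrays (log2 2.53 ± 0.35, adjusted p = 0.0972). Hoatz, a gene of cilia and flagella, averaged 29.8 ± 7.49 in siPea3 cells and 7.27 ± 0.886 in siErm cells (log2 2.01 ± 0.26). In both genes every siPea3 array was above every siErm array. The siCtrl means lay on the siErm side, at 12.7 ± 11.1 for Rgcc (24.59, 2.7 and 10.9) and 5.06 ± 2.24 for Hoatz (SD, n = 3). Neither gene was detected in untransfected cells.

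Dim genes made up much of the rest of that group. Slc5a1, the sodium-glucose cotransporter, averaged 4.01 ± 1.31 in siPea3 cells and 0.833 ± 0.198 in siErm cells, at least 4.73-fold higher, and H2-Oa, a chain of a nonclassical MHC class II molecule, 3.16 ± 1.64 and 0.52 ± 0.245, at least 5.18-fold higher, both detected on no siErm array. The carboxylesterase gene Ces2g (8.85-fold), the metalloendopeptidase gene Mmel1 (4.18-fold) and Kctd19 (3.9-fold) were detected on 1 of 3 siErm arrays each. Leaving out 1 siErm array gave log2 differences of 2.46 (without array 1) and 3.77 (without array 2) for Ces2g, against 3.15 with all, and of 1.27 (without array 2) and 2.65 (without array 3) for Kctd19, against 1.97 with all. Aldh1l1, an enzyme of folate metabolism, was 3.56-fold higher, and its other probe was too dim to be tested. Plekhg6 was 3.24-fold higher, Mab21l3 3.15-fold and the transporter gene Abca8b 2.46-fold. Gene groups below take up Cbs, Gadd45a, Krt7 and Lamb3, the remaining 4 of the 17.

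Among the genes lower in siPea3 cells, Serpinb2, the plasminogen activator inhibitor PAI-2, had the smallest p. It read 8.74, 12.61, 11.76 and 8.21 on siPea3 arrays, against 37.05, 37.98 and 30.42 on siErm arrays (log2 -1.78 ± 0.23, adjusted p = 0.0878). The siCtrl mean was 20.1 ± 10.1 (SD, n = 3), between the 2 knockdowns. Fbxo36, an F-box gene, was 2.17 ± 0.377 in siPea3 cells and 7.21 ± 1.36 in siErm cells, and here siCtrl cells (3.07 ± 1.04) were nearer to siPea3 cells. Cdh17, the liver-intestine cadherin, read 6.06, 7.98, 9.66 and 6.89 on siPea3 arrays, against 24.88, 52.89 and 25.73 on siErm arrays, and there the siCtrl mean of 32.7 was on the siErm side.

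P2ry12, the ADP receptor of platelets and microglia, averaged 2.05 ± 0.821 in siPea3 cells and 12.5 ± 5.87 in siErm cells (6.06-fold lower). Wdfy1 (3-fold), the sister chromatid cohesion gene Dscc1 (2.8-fold), the exchange factor Ngef (2.24-fold) and the carboxypeptidase gene Cpb1 (at least 3.14-fold, on no siPea3 array detected) were lower with tight groups. Plac1, a gene mainly of placenta and tumours, was 5.25-fold lower and Prnd, which encodes the prion-like protein Doppel, 5.06-fold lower. The 2 placental prolactin genes tested were both named. Prl8a9 read 3.11, 11.07, 12.12 and 3.89 on siPea3 arrays, against 26.4, 66.38 and 41.13 on siErm arrays, and Prl3d3 0.35, 1.86, 0.59 and 0.65, against 3.63, 4.77 and 5.02. Single siErm arrays weigh on several genes. Get1 read 37.06 on siErm array 3 and 3.12 and 4.64 on the other siErm arrays, and Jag1 read 12.89 on siErm array 1 and 3.09 and 2.7 on the others. Without siErm array 3 the log2 difference of Get1 was -1.12, against -2.22 with it, and without siErm array 1 it was -2.91. Without siErm array 1 the log2 difference of Jag1 was -1.35, against -2.07 with it. Plac1, Dscc1, Prl3d3 and Get1 were each detected on 1 of 4 siPea3 arrays, and Prnd and Fbxo36 on 2 of 4. The folds of these genes rest in part on signals below detection.

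**Figure D2:**
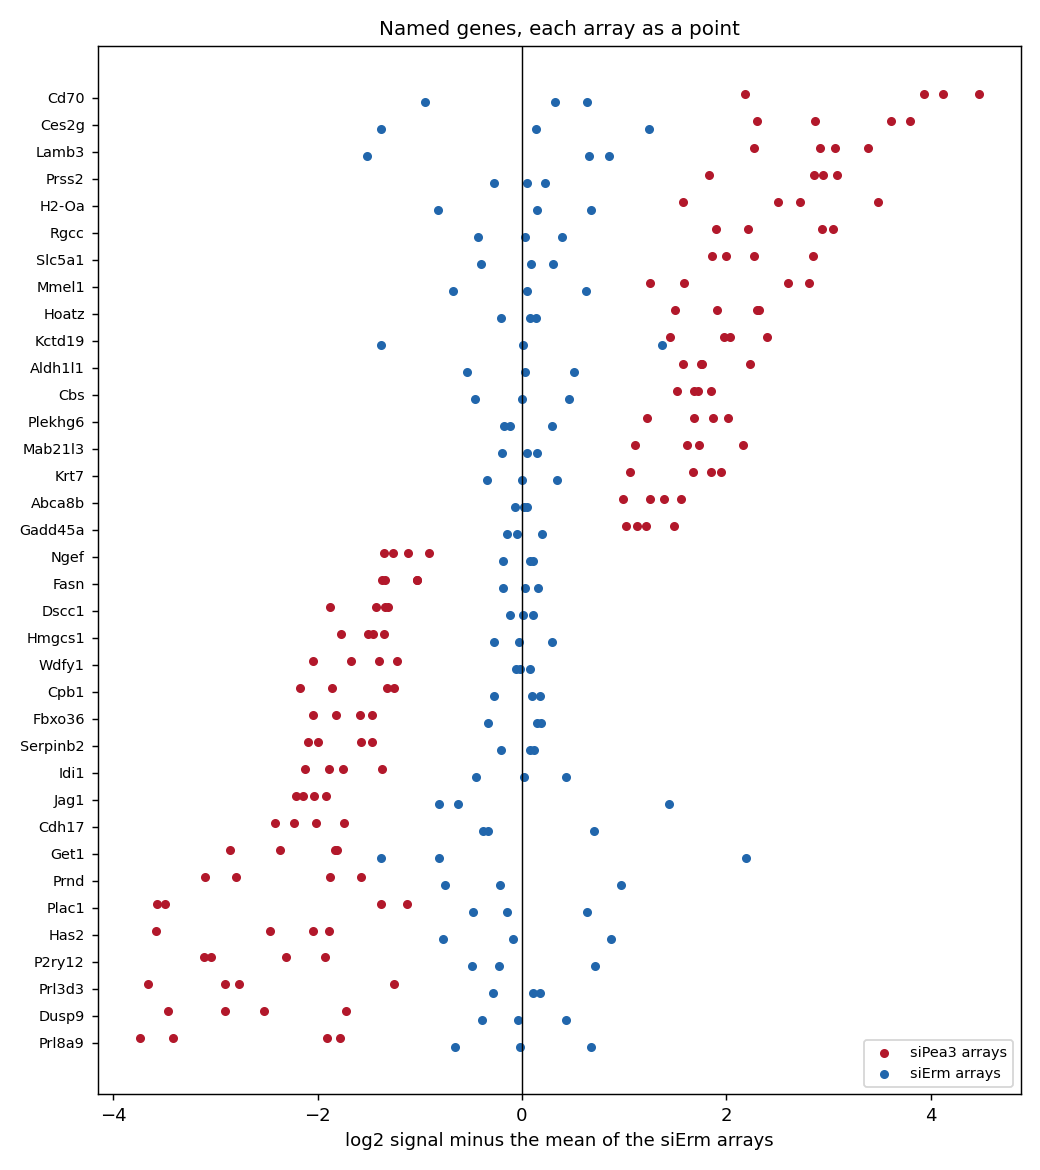
Log2 signal of each array minus the mean of the siErm arrays for the 36 genes named by rule, with siPea3 arrays in red and siErm arrays in blue. The groups do not overlap for any of them, which the rule required, and the siErm points spread widest for Get1, Kctd19 and Ces2g.

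Most genes of cholesterol synthesis read lower in siPea3 cells than in siErm cells. Of 15 tested, 10 were lower without overlap, against 13.3% of all probes, and 12 had an unadjusted p under 0.05 on the lower side, although none passed in limma. The list median was -0.72 relative to all probes (-0.96 to -0.57 over 18 alternatives). With the detected probes scaled, 4 of 15 were apart on the lower side and 1 on the higher, against 6.91% and 9.79% of all probes. Most of these genes are switched on by SREBP2 when cells lack sterol.

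Hmgcs1 makes HMG-CoA at the head of the pathway, and read 89.71, 96.4, 86.6 and 72.35 on siPea3 arrays, against 204.51, 302.98 and 241.68 on siErm arrays. The siErm level was near that of siCtrl cells (305.8 ± 91.3, SD, n = 3), and the difference was 2.87-fold (log2 -1.52 ± 0.22, adjusted p = 0.101). The 2 untransfected arrays read 83 and 792.18, 1 within the siPea3 range and 1 above all siErm arrays. Idi1, the isopentenyl diphosphate isomerase, was read by 2 probes, both lower without overlap. The dimmer probe read 16.69, 12.95, 21.73 and 15.17 on siPea3 arrays, against 41.22, 76.14 and 56.97 on siErm arrays. In untransfected cells it read 9.14 and 154.04, 1 below and 1 above all of these. The sterol demethylase Cyp51 averaged 24.05 ± 3.76 in siPea3 cells and 74.1 ± 29.9 in siErm cells, and the squalene synthase Fdft1 51.95 ± 12.6 and 146.8 ± 63.7. The wider spread of the siErm group in both came from siErm array 2, at 103.42 for Cyp51 and 219.56 for Fdft1. Leaving that array out moved the relative list median to -0.57. Only Sc5d, a late desaturase of the pathway, had a positive estimate among the 15 (140.6 ± 41.5 in siPea3 cells and 119.0 ± 11.6 in siErm cells).

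The promoter of Hmgcs1 is shown because sterol response elements are the known control of this gene. The 250 bases before its RefSeq start (GRCm38.p6, chr13:119690101-119690350, plus strand) hold 1 match, in capitals, to the letters CACCCCAC, searched on both strands.
Hmgcs1: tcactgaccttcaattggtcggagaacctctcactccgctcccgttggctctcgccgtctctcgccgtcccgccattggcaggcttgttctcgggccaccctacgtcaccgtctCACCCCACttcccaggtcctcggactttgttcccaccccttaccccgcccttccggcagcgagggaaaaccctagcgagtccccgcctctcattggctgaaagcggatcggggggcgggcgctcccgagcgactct
Of 32851 mouse promoters of the same length 2.6% hold these letters, and of the 12 cholesterol genes with an entry 1 does. The letters AGGAAG (or CTTCCT on the other strand), a motif bound by PEA3 factors, are in 29.5% of all promoters. They are in 1 of these 12, in 6 of 14 named higher genes with an entry and in 5 of 14 named lower genes.

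Fatty acid synthesis genes read lower in siPea3 cells as well. Of 15 tested, 10 were lower without overlap and none higher, against 13.3% and 2.63% of all probes. With the detected probes scaled 8 were apart on the lower side (6.91% of all probes), and the list median relative to all probes was -0.58 (-0.72 to -0.45 over 18 alternatives). None passed in limma, and 8 had an unadjusted p under 0.05. Fasn, the fatty acid synthase, read 116.41, 91.56, 116.21 and 93.77 on siPea3 arrays, against 263.99, 241.18 and 208.31 on siErm arrays (2.28-fold lower, log2 -1.19 ± 0.20, adjusted p = 0.139). The spread within each group was small beside the gap. The elongase Elovl6 averaged 24.9 ± 2.82 in siPea3 cells and 59.8 ± 17.5 in siErm cells, the acyl-CoA ligase Acsl3 37.9 ± 3.53 and 67.0 ± 7.48, and the desaturase Fads2 6.1 ± 1.51 and 12.1 ± 2.68. For Fasn (262.2), Elovl6 (78.6), Acsl3 (94.4) and Fads2 (15.1) the siCtrl mean lay on the siErm side. Untransfected cells read 171.66 and 468.7 for Fasn, 1 between the 2 knockdown groups and 1 above both. Dgat2, of triglyceride synthesis, was the member with a positive estimate (29.7 ± 15.5 and 23.25 ± 3.66).

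**Figure D3:**
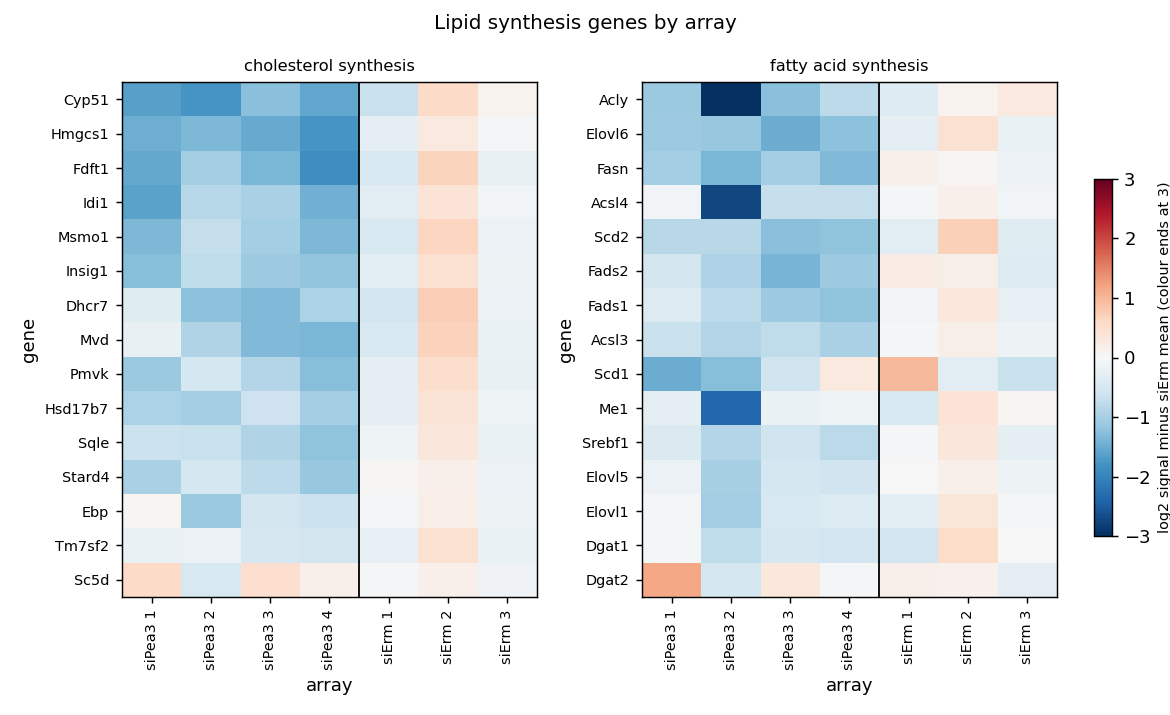
Log2 signal of each array minus the mean of the siErm arrays, in colour (blue lower, red higher, colour ends at 3), for the tested genes of cholesterol and fatty acid synthesis, with siPea3 arrays left of siErm arrays. Of 15 genes in each panel, 10 are lower on every siPea3 array than on every siErm array, and Acly, Acsl4 and Me1 are darkest on siPea3 array 2.

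Targets of p53, the transcription factor of the DNA damage response, had the highest median of the 29 pathway lists. Of 15 tested, 7 were higher in siPea3 cells without overlap (2.63% of all probes) and none lower, and the list median was 0.91 above that of all probes (0.71 to 0.95 over 18 alternatives). With the detected probes scaled 9 were apart on the higher side, and without siPea3 array 2 likewise 9, against 9.79% and 5.36% of all probes. Of the 15, 7 had an unadjusted p under 0.05 and none passed in limma. Gadd45a, a growth arrest and repair gene, read 441.44, 319.58, 366.16 and 342.77 on siPea3 arrays, against 180.07, 152.61 and 142.05 on siErm arrays (2.32-fold higher, log2 1.21 ± 0.21, adjusted p = 0.139). The siErm level was that of siCtrl cells (166.3 ± 18.2). The 2 untransfected arrays read 2108.2 and 44.61, 1 above and 1 below all of these.

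Btg2, an antiproliferative gene, averaged 344.6 ± 77.3 in siPea3 cells and 158.1 ± 27.9 in siErm cells, with 140.1 in siCtrl cells and 25.6 in untransfected cells. Trp53inp1, a proapoptotic stress gene, averaged 516.9 ± 88.9 in siPea3 cells and 273.6 ± 42.3 in siErm cells. Phlda3, an inhibitor of Akt, read 902.35, 1025.1, 1146.53 and 933.6 on siPea3 arrays, against 632.88, 679.59 and 545.21 on siErm arrays. All 4 of these genes were higher in siPea3 cells without overlap. Cdkn1a, the cell cycle inhibitor p21, was bright in both groups and overlapped (805.7 ± 150.4 and 639.3 ± 198.1, log2 0.36 ± 0.27).

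The promoter of Gadd45a, the leading gene of the list, is shown beside that of Hmgcs1 as a case with no match to either set of letters (GRCm38.p6, chr6:67037408-67037657, minus strand).
Gadd45a: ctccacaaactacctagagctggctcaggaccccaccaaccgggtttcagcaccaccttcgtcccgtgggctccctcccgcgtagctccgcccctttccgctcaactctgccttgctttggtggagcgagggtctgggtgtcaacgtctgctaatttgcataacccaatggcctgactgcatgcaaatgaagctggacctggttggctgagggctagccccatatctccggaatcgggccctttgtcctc
Of the 10 tested p53 targets with an entry 3 hold AGGAAG or its complement, and of the 10 tested fatty acid synthesis genes with an entry 6 do, against 29.5% of all promoters.

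Genes controlled by ATF4, the factor of amino acid shortage, mostly overlapped between the knockdowns. Of 20 tested, 2 were higher without overlap and none lower, against 2.63% and 13.3% of all probes, with a relative median of 0.32. None passed in limma, and 2 higher and 1 lower had an unadjusted p under 0.05. Cbs, which starts the conversion of homocysteine to cysteine, read 25.56, 29.45, 32.13 and 28.7 on siPea3 arrays, against 8.92, 6.46 and 12.27 on siErm arrays (3.24-fold higher, log2 1.70 ± 0.25, adjusted p = 0.103). Ddit3, the stress factor CHOP, read 215.64, 262.44, 265.38 and 271.85 on siPea3 arrays, against 134.12, 113.78 and 113.42 on siErm arrays (log2 1.07 ± 0.19, adjusted p = 0.158). In both genes the siErm arrays were near the siCtrl means (9.8 and 127.4). Other genes of the response did not follow them: Atf4 itself averaged 567.1 ± 63.6 in siPea3 cells and 503.3 ± 70.4 in siErm cells, and the asparagine synthetase Asns 120.2 ± 14.8 and 134.7 ± 17.8.

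Inflammatory genes had differences of both signs. Of 16 tested, 4 were higher and 2 lower without overlap (2.63% and 13.3% of all probes). None passed in limma, and those 6 were the members with an unadjusted p under 0.05. The interleukin gene Il6 read 730.98, 407.99, 1044.11 and 638.24 on siPea3 arrays, against 209.48, 298.45 and 221.44 on siErm arrays (log2 1.48 ± 0.33). The chemokine gene Ccl7 averaged 1837 ± 564 in siPea3 cells and 695.0 ± 167.8 in siErm cells, and the growth factor gene Csf2 672.7 ± 228.0 and 286.8 ± 48.9. Cxcl1, a chemokine for neutrophils and among the brightest genes measured, read 6512.12, 6875.03, 6408.97 and 6325.57 on siPea3 arrays, against 4191.41, 4368.84 and 3981.46 on siErm arrays. These 4 genes were lower in untransfected cells than in siErm cells, at 25.5 for Il6, 146.9 for Ccl7, 40.3 for Csf2 and 1743 for Cxcl1.

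Il33, an alarmin of the interleukin 1 family, had the opposite sign and the smallest p of this list. It read 121.51, 143.79, 92.44 and 52 on siPea3 arrays, against 383.04, 579.08 and 287.91 on siErm arrays (log2 -2.06 ± 0.40, adjusted p = 0.158). The siErm arrays were close to siCtrl cells (480.5) and untransfected cells (462.2), so the siPea3 group alone stood low. Csf3, which drives neutrophil production, was also lower, at 1202 ± 147 in siPea3 cells and 2050.0 ± 587.9 in siErm cells.

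Genes reported elsewhere as PEA3 targets, among them matrix proteases, mostly overlapped between the knockdowns. Of 17 tested, 2 were lower without overlap and none higher (13.3% and 2.63% of all probes), 3 had an unadjusted p under 0.05 and none passed in limma. The 2 were Spry2, a feedback inhibitor of growth factor signalling (16.04 ± 2.88 in siPea3 cells and 24.4 ± 5.27 in siErm cells), and Vim, which encodes vimentin (3878 ± 755 and 5137 ± 170). The membrane protease Mmp14 overlapped (707.6 ± 72.8 and 1073 ± 368), as did Mmp3 (66.1 ± 44.8 and 118.9 ± 45.4). Among 13 matrix proteases and their inhibitors, Serpinb2 alone had groups apart. Estimates were negative for 12 of these 13 genes and for 16 of the 17 reported targets, as they were for 9507 of all 13017 probes, and the relative medians were -0.31 and -0.21.

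MAP kinase feedback and early response genes had 5 of 23 lower without overlap and none higher (13.3% and 2.63% of all probes), with a relative median of -0.19. Dusp9, a MAP kinase phosphatase, read 5.44, 1.63, 3.12 and 2.4 on siPea3 arrays, against 13.71, 24.28 and 17.44 on siErm arrays (6.3-fold lower, log2 -2.65 ± 0.41, adjusted p = 0.103). Untransfected cells read more than either, at 39.3. Myc, the growth-promoting transcription factor, averaged 130.8 ± 23.2 in siPea3 cells and 223.3 ± 18.6 in siErm cells, the phosphatase Dusp7 70.8 ± 6.76 and 134.0 ± 45.2, and Fosl1, an AP-1 subunit, 92.1 ± 35.9 and 186.0 ± 32.5. Fos, Jun and Egr1, which respond at once to MAP kinases, overlapped between the groups. Egfr, the EGF receptor gene, was higher at a low level, at 3.38, 4.02, 8.06 and 5.56 on siPea3 arrays, against 2.01, 1.56 and 2.46 on siErm arrays, where it was not well above background (at least 2.51-fold higher).

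Matrix and adhesion genes held some of the larger differences. Of 15 tested, 4 were lower without overlap and none higher (13.3% and 2.63% of all probes), and none passed in limma, where 4 had an unadjusted p under 0.05. Cd44, the hyaluronan receptor, read 111.08, 110.63, 88.57 and 85.92 on siPea3 arrays, against 224.86, 324.22 and 193.45 on siErm arrays (log2 -1.30 ± 0.24, adjusted p = 0.158). Has2, which makes hyaluronan, read 4.96, 1.71, 3.71 and 5.53 on siPea3 arrays, against 19.25, 37.44 and 11.98 on siErm arrays (log2 -2.50 ± 0.51, adjusted p = 0.162). The receptor and the synthase were thus both lower, with siErm arrays near the siCtrl means (241.8 and 25.6). Tnc, which encodes the matrix glycoprotein tenascin C, averaged 220.8 ± 71.1 in siPea3 cells and 552.4 ± 193.8 in siErm cells. Fibronectin (Fn1) and the basement membrane collagens Col4a1 and Col4a2 overlapped, with log2 differences of -0.10 ± 0.41, -0.03 ± 0.36 and -0.04 ± 0.23.

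The Cd44 promoter is shown because it holds 3 matches to AGGAAG or CTTCCT, in capitals, within its 250 bases (GRCm38.p6, chr2:102901666-102901915, minus strand).
Cd44: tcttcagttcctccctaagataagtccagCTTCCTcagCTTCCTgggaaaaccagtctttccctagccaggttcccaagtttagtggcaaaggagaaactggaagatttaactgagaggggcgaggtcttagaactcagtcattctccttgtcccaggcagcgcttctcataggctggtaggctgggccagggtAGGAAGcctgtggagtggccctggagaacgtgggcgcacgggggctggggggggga
Hmgcs1 and Gadd45a hold none, so genes with large differences were found with and without these letters. Other sites with a GGAA core were not searched, and both of those promoters hold GGAA or its complement TTCC. The letters therefore do not tell which promoters lack ETS sites.

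Keratins and a laminin had differences of both signs. Krt7 read 4.16, 6.41, 7.72 and 7.21 on siPea3 arrays, against 1.58, 2 and 2.55 on siErm arrays (log2 1.63 ± 0.29, adjusted p = 0.148). Lamb3, a chain of the epithelial basement membrane laminin, read 20.28, 11.74, 25.29 and 18.3 on siPea3 arrays, against 4.38, 0.85 and 3.83 on siErm arrays (log2 2.91 ± 0.57, adjusted p = 0.158, and log2 2.15 without siErm array 2). The basal keratin Krt17 averaged 25.04 ± 8.05 in siPea3 cells and 8.33 ± 1.5 in siErm cells. All 3 were higher without overlap, and their siCtrl means (2.18, 1.9 and 8.88) were at the siErm level. Of 8 luminal markers tested 1 was higher without overlap, and of 5 basal markers 2. None was lower in either list, against 2.63% higher and 13.3% lower of all probes. Lamb3 and Krt17 are 2 of the 5 basal markers tested, and the other 3, Krt14, Mylk and Itga6, overlapped with negative estimates (log2 -0.33, -0.12 and -1.78). The bright luminal keratins overlapped and had negative estimates, with Krt8 at 410.4 ± 120.8 in siPea3 cells and 678.2 ± 98.1 in siErm cells and Krt18 at 73.3 ± 20 and 110.2 ± 23.2. Summed luminal markers, of which Krt8 is the brightest, overlapped, at 522 to 859 on siPea3 arrays and 825 to 1121 on siErm arrays. The part of luminal markers in the other results was not tested. Zfp750, an epidermal differentiation factor, was higher without overlap, at 39.3 ± 13.5 in siPea3 cells and 12.7 ± 3.46 in siErm cells, while the cornified envelope genes Sprr1a and Ivl overlapped. Of 7 genes tested on the cornified envelope list 1 was higher without overlap and none lower (2.63% and 13.3% of all probes).

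Summed signals of the markers of other cell types, undetected ones included, overlapped between the groups as well. Fibroblast markers summed to 2796 to 5029 on siPea3 arrays and 2398 to 3816 on siErm arrays, basal markers to 73.0 to 104.5 and 61.5 to 97.2, and leukocyte markers to 44.5 to 76.1 and 41.7 to 58.6. Endothelial markers summed to 15.6 to 25.1 and 16.8 to 20.5, and adipocyte markers to 6.77 to 8.78 and 7.49 to 8.89. Dcn and S100a4 made up most of the fibroblast sum (means of 1728 and 1885 in siPea3 cells). Cd14 (43.25) was the brightest leukocyte marker and Eng (11.85) the brightest endothelial marker. No adipocyte marker was detected on all 7 arrays. The sums thus follow a few genes or background, and their overlap does not compare amounts of a cell type. In these bulk samples fewer cells of a kind and less RNA per cell cannot be told apart.

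Interferon response genes had 7 of 27 lower without overlap and none higher (13.3% and 2.63% of all probes), and 4 lower and 1 higher with the detected probes scaled (6.91% and 9.79%). Oasl1, an antiviral gene, read 21.69, 57.25, 39.2 and 36.45 on siPea3 arrays, against 100.78, 148.21 and 123.57 on siErm arrays (log2 -1.75 ± 0.34, adjusted p = 0.158). Untransfected cells were lower than both, at 17.8, and siCtrl cells higher, at 173.6. The immunoproteasome subunit Psmb8 averaged 297.6 ± 90.7 in siPea3 cells and 548.4 ± 76.0 in siErm cells. Usp18, which removes ISG15 from proteins, averaged 553.3 ± 34.1 in siPea3 cells and 790.8 ± 105.7 in siErm cells. Isg15, Ifit1 and Cxcl10, bright in both groups, overlapped, and the relative list median was -0.21 (-0.35 to -0.01 over 18 alternatives).

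Chaperone lists were lower in part. Of 19 chaperones and stress genes of the endoplasmic reticulum 4 were lower without overlap, and of 10 heat shock chaperones 5, against 13.3% of all probes, with none higher in either (2.63% of all probes). With the detected probes scaled 3 in each list were apart on the lower side (6.91% of all probes) and 1 of the first list on the higher side (9.79%). Manf, a secreted stress protein, read 144.33, 131.71, 153.4 and 146.83 on siPea3 arrays, against 259.38, 235.94 and 247.22 on siErm arrays (log2 -0.78 ± 0.18, adjusted p = 0.205). The groups were narrow and apart. The disulfide isomerase Pdia4 averaged 131.5 ± 52.5 in siPea3 cells and 270.0 ± 47.0 in siErm cells, with siPea3 array 2 lowest at 60.91. Hspd1, the mitochondrial chaperonin, averaged 238.7 ± 65.2 in siPea3 cells and 517.5 ± 151.7 in siErm cells, and Dnajb1, a cochaperone of Hsp70, 57.9 ± 3.79 and 91.1 ± 14.0. Hspa5, the main chaperone of the endoplasmic reticulum, overlapped (log2 -0.40 ± 0.27).

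Most cell cycle genes overlapped between the knockdowns. Among 19 DNA replication genes 6 were lower without overlap (2 with the detected probes scaled, against 6.91% of all probes), and among 24 mitosis genes 6 were lower and 1 higher, and among 13 genes of the G1/S transition 3 were lower, against 13.3% and 2.63% of all probes. Cdc6, which loads the replicative helicase, read 13.73, 15.14, 15.63 and 10.38 on siPea3 arrays, against 27.71, 32.3 and 27.4 on siErm arrays (log2 -1.10 ± 0.22, adjusted p = 0.161). The helicase subunit Mcm6 averaged 125.9 ± 35.2 in siPea3 cells and 261.1 ± 56.0 in siErm cells, and the mitotic kinase Plk1 81.5 ± 10.7 and 117.9 ± 9.73. The kinase Cdk6 averaged 28.5 ± 4.99 in siPea3 cells and 43.2 ± 1.43 in siErm cells. The siCtrl means of these genes were nearer to the siErm level, at 27.6 for Cdc6, 215.7 for Mcm6, 108.1 for Plk1 and 44.5 for Cdk6. Of 17 cell death genes 2 were higher and 3 lower without overlap (2.63% and 13.3% of all probes), with a relative median of 0.07. With the detected probes scaled 4 were higher and 2 lower (9.79% and 6.91% of all probes). Casp6, an executioner caspase, averaged 55.7 ± 12.1 in siPea3 cells and 107.0 ± 16.2 in siErm cells, while Birc3, an apoptosis inhibitor, was higher at 120.9 ± 26.7 and 75.9 ± 15.3.

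Of 14 Notch and Wnt genes 1 was higher and 2 were lower without overlap, against 2.63% and 13.3% of all probes, so the lower share was close to the background. With the detected probes scaled 2 were higher and 2 lower, against 9.79% and 6.91% of all probes. The receptor gene Notch3 read 21.26, 24.09, 30.06 and 23.87 on siPea3 arrays, against 11.91, 16.31 and 9.21 on siErm arrays (log2 1.02 ± 0.25, adjusted p = 0.224). The ligand gene Jag1 and the effector gene Hey1 were lower without overlap and detected on no siPea3 array. Over all 7 arrays they were at least 4.21-fold (Jag1) and 3.17-fold (Hey1) lower. This limit allows for undetected signals only, and the log2 difference of Jag1 was -1.35 without siErm array 1. Jag1 averaged 2.02 in siCtrl cells and read 61.44 and 8.6 in untransfected cells. Of 16 hypoxia and glycolysis genes 2 were lower without overlap and none higher, a share close to that of all probes (13.3% and 2.63%). With the detected probes scaled 3 of these 16 were lower and none higher, against 6.91% and 9.79% of all probes. Pgk1 averaged 299.8 ± 109.6 in siPea3 cells and 613.8 ± 126.8 in siErm cells, and Hk2 78.3 ± 15.7 and 141.6 ± 42.3. Genes of the respiratory chain (1 of 31 lower without overlap), the proteasome (3 of 23) and TGF-beta and BMP signalling (0 of 13) gave shares at or below the 13.3% of all probes.

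**Figure D4:**
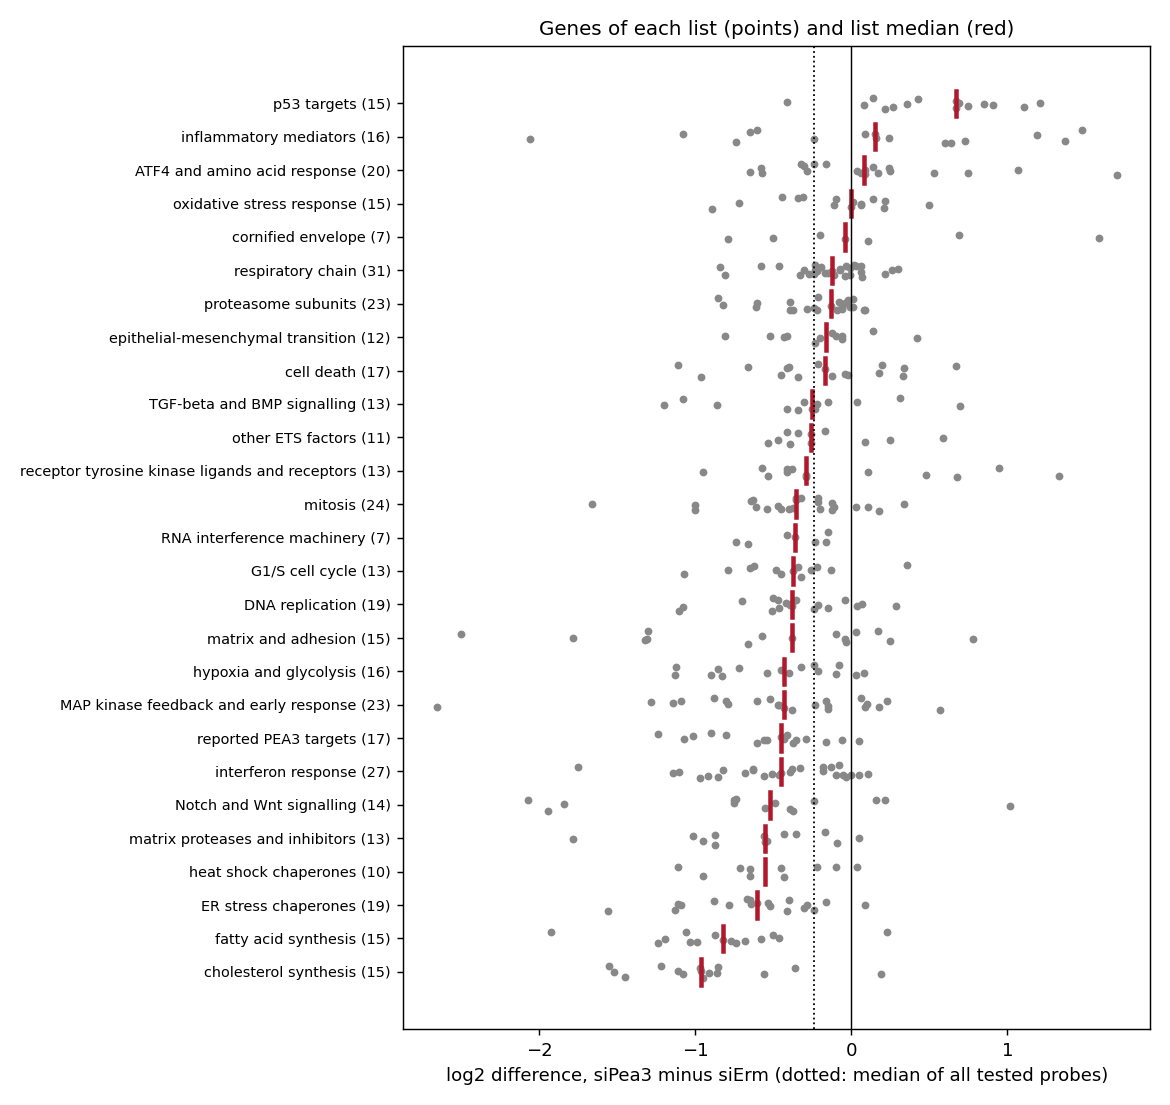
Log2 difference, siPea3 minus siErm, of the tested genes of each list with at least 5 of them (points, number tested in brackets) and the list median (red), with 0 as a solid line and the median of all tested probes (-0.24) as a dotted line. The p53 targets lie farthest right (median 0.67) and the cholesterol synthesis genes farthest left (median -0.96), and most lists lie close to the dotted line.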

How the data were processed

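Per the file headers, the authors deposited 1 normalized, linear intensity per probe and array (the signal), its noise as a ratio to the signal, and a status code for failed measurements. How the authors corrected the background or scaled the arrays is not given in the sources used here. All 392662 filled values of the series table equalled those of the separate array files, and no pair of arrays shared over 0.739% of values.

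Signals were taken to log2 as deposited, and failed measurements (183 to 428 on each of the 7 arrays) were treated as missing. Detection meant a signal at least 3 times the noise, and probes were tested if detected on at least 3 of the 7 arrays with at least 2 values in each group, which left 13017 probes, 7777 of them with 1 gene symbol. Of all probes, 14411 carry 1 symbol in the annotation table, 247 carry several and 18354 carry no symbol. No symbol needed updating through RefSeq. No genome build is named for the array.

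The comparison used limma 3.58.1 (lmFit and eBayes) under R 4.3.3, without covariates. It had 5 residual degrees of freedom and 3.02 from the prior, and Benjamini-Hochberg adjustment ran over all tested probes. Errors of log2 differences are standard errors and those of signals standard deviations over arrays. "At least" folds compare means of log2 signals and take each signal of the undetected group at no less than the lowest signal of any detected probe on that array. They allow for undetected signals and not for the spread over arrays. For Cd70, Slc5a1, Jag1 and Cpb1 they equal the fitted folds. Etv4, Etv5 and Etv1 were also tested by exact permutation of the 7 arrays. The number of arrays limits the precision.

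Same-numbered siPea3 and siErm arrays deviated together at correlations of -0.062, 0.178 and 0.206 over 12992 probes, so the numbers were not taken to pair them. Genes were named as 12 with the smallest p and 10 with the largest difference per direction, up to 4 per list, and marker genes. Further list members were named after their values were seen. The 35 lists (29 pathways, 6 cell types, 744 distinct genes, 1 probe per gene, the one brightest over the 7 arrays) and the comparison itself were chosen with earlier results of these data known. The list of reported targets comes from general knowledge of these factors. Alternatives were 18 settings of scaling, filter, variance, pairing and left-out arrays. Promoter sequences are from RefSeq (GRCm38.p6). Figures were drawn with matplotlib 3.10.9. The fit was tested on simulated data.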

Additional observations from a re-analysis of the deposited data

How the results depend on the processing

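The number of probes passing at an adjusted p under 0.05 (2 in limma as reported) was 0 after quantile normalization (1806 at an unadjusted p under 0.05), with the median of all probes set equal (1040), with no filter on dim probes (2138 of 32995) and with a filter of 2 of 12 arrays (1755). It was 15 for probes detected on all 7 arrays, 7 with all 12 arrays fitted, 21 with an intensity trend and 421 with array weights. The cause was not tested, beyond the change in probes tested (9557 for the 15). With the replicate block it was 0 (1127 unadjusted), and no siErm array correlated best with the siPea3 array of its own number. Leaving out each array in turn gave 0 to 3, 3 without siPea3 array 1 and 0 without any other array (933 to 1758 unadjusted). Etv4 kept its negative sign in all 18 alternatives (-1.02 to -0.57) and Etv1 in the 17 that gave it a value (-1.55 to -0.46), and neither passed, whether with the replicate block (-0.78 and -0.60) or without it. The Etv5 estimate, -0.16 and below detection, turned to 0.11 with the detected probes scaled and to 0.43 without siErm array 1 (-0.47 to 0.43 over left-out arrays), and was -0.22 with the replicate block.

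Of 625 values of the 36 named genes under alternatives none changed sign, which their choice by groups without overlap fixed in advance for most settings. Of these values 57 passed where the reported value did not, with 32 genes passing under array weights, 12 under an intensity trend and 9 for probes detected on all 7 arrays. Relative list medians moved by more than the spread between siPea3 arrays in 7 of 629 cases, and the adipocyte list had no value over members detected on all 7 arrays. The matrix and adhesion median was -0.14 as reported and 0.16 over members detected on all 7 arrays. Counts of groups without overlap under another scaling and without siPea3 array 2 were added after seeing the data. The latter left 10 of 15 lower genes in both lipid lists, against 14.8% of all probes. Dim probes such as Etv5 and most of those detected on 1 group only are limited by signal over background.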

Other observations

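Genes of the RNA interference machinery, which both transfected groups use, were also compared. Of 7 tested, 2 were lower in siPea3 cells without overlap, against 13.3% of all probes, and none with the detected probes scaled, against 6.91%. Dicer1, which cuts small RNAs from their precursors, read 9.68, 6.94, 10.07 and 10.61 on siPea3 arrays, against 12.63, 19.46 and 12.51 on siErm arrays (log2 -0.66 ± 0.26, limma adjusted p = 0.363). Ran, the GTPase of nuclear transport, read 49, 21.64, 39.37 and 36.7 on siPea3 arrays, against 49.69, 82.41 and 49.9 on siErm arrays (log2 -0.74 ± 0.33, limma adjusted p = 0.390). In both genes siPea3 array 2 was lowest and siErm array 2 highest. The exportin Xpo5 and the nuclease Drosha overlapped, with log2 differences of -0.41 ± 0.24 and -0.36 ± 0.23.

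Of 15 oxidative stress genes 1 was lower without overlap and none higher, against 13.3% and 2.63% of all probes. With the detected probes scaled none was lower and 3 were higher, against 6.91% and 9.79%. Txn1, which encodes thioredoxin, was lower at 1.52, 1.95, 2.01 and 1.85 on siPea3 arrays, against 4.08, 2.92 and 2.28 on siErm arrays (log2 -0.72 ± 0.25, limma adjusted p = 0.325). The probe was dim, as the median signals of all probes on the siPea3 arrays were 1.3 to 1.65. Sod2, the mitochondrial superoxide dismutase, overlapped, at 368.76 to 584.79 on siPea3 arrays and 314.78 to 377.38 on siErm arrays.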
